A study of Mus musculus with 2 samples.

Results

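The interferon regulatory factors described here are the 8 genes Irf1, Irf2, Irf3, Irf4, Irf5, Irf7, Irf8 and Irf9. They were taken by symbol from the 17751 genes of the count tables, and all 8 had UMIs (unique molecular identifiers, which count each captured transcript 1 time) in both libraries. The cells were CD11c+ MHCII+ cells sorted from spleens of female C57BL/6 mice of 8 weeks, either wild type (WT) or Batf3-/-, and no mouse was treated. Each genotype was 1 library from the pooled spleens of 6 mice, so no test between genotypes could be made. WT mice came from an outside supplier and Batf3-/- mice were bred in house, so the origin of the mice went with genotype. The 95% intervals, where given, cover counting error only. The WT library held 12224 cells and the Batf3-/- library 12119 cells, and the authors had sorted them into 20 clusters, C0 to C19, from the same transcripts. Differences between clusters are therefore descriptions.

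Interferon regulatory factors share a DNA-binding domain that reads GAAA repeats. IRF8 and IRF4 bind few sites alone and are recruited by partners, PU.1 and Spi-B at Ets composite elements and BATF proteins with JUN at AP-1 composite elements. In dendritic cells IRF8 sets the identity of conventional dendritic cells type 1 (cDC1), which cross-present antigen, and BATF3 keeps the Irf8 gene switched on in cDC1 precursors. Plasmacytoid dendritic cells (pDC) also carry much IRF8, whereas cDC2 rely on IRF4. IRF3, IRF5 and IRF7 are kinase-activated factors downstream of nucleic acid sensors, IRF9 acts in the response to type I interferon, IRF1 is induced by interferon-gamma and NF-kappaB, and IRF2 competes with IRF1 for DNA.

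On GRCm38 the genes lie apart, except that Irf2 and Irf8 share chromosome 8 (46739732 to 46847458 and 120736358 to 120756694, both on the + strand) and Irf3 and Irf7 share chromosome 7 (44997648 to 45002848 on the + strand and 141262706 to 141266481 on the - strand). Irf1 lies on chromosome 11 (53770014 to 53778374), Irf4 on chromosome 13 (30749226 to 30766976), Irf5 on chromosome 6 (29526625 to 29541871) and Irf9 on chromosome 14 (55603571 to 55610030), all on the + strand. Irf9 shares its first 123 bases with the end of Rnf31 on the same strand, so reads there could not be told apart. Irf8 is overlapped on its own strand by Gm20388, which was not analysed here. Promoter windows of 300 bases (250 before and 50 after the start, RefSeq, GRCm38.p6) were found for all 8 genes and searched on both strands. The STAT-type element TTCNNNGAA was in a window of 3 of the 8 genes, Irf1, Irf2 and Irf8, and in 8.3% of 32851 windows of all genes. The core of the interferon-stimulated response element (GAAA repeated after 2 free bases) was in the Irf2 window alone and in 3.44% of all windows. The Ets composite element (GGAA, 2 free bases, GAAA) and a kappaB form (GGG, 2 free bases, TTTCC) were also in the Irf2 window alone, against 2.72% and 1.63% of all windows. Other kappaB forms were not searched, so their absence from the other windows is not shown. The AP-1 element TGANTCA was in none of the Irf windows and in 7.81% of all. The response element and the Ets composite of Irf2 overlapped each other. The windows of Irf1 and Irf8 are shown because the results below turn on these genes, with TTCNNNGAA matches in capitals:
Irf1, chr11:53769764-53770063, + strand: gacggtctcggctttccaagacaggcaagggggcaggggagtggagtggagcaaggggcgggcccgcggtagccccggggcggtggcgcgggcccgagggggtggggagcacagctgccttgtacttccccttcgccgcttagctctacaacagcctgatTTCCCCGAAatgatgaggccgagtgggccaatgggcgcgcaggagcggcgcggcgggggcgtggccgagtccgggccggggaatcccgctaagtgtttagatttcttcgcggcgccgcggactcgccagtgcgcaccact
Irf8, chr8:120736108-120736407, + strand: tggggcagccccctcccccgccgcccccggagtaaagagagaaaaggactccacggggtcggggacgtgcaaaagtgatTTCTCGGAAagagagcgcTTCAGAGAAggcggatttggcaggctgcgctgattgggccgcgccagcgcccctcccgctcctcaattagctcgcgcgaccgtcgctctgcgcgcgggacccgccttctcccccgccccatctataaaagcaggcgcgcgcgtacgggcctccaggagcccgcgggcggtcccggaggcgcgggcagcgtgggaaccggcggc
The Irf8 window held 2 such matches and the Irf1 window 1. Irf1, Irf8 and Irf9 each had a further window at another start, and these held no match of any motif searched. A match describes letters and not a bound site, and the series holds no binding data.

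Batf3 itself was checked before the Irf genes. It stood at 206 UMIs per 1000000 UMIs (CPM) in the WT library and at 2.49 CPM in the Batf3-/- library. The libraries held 122530055 and 114517073 UMIs, with medians of 8374.5 and 8516 per cell, and 56 cell barcodes occurred in both. The defining genes of the clusters named below were present. Siglech stood at 1927 and 2148 CPM in C14 (pDC), and Xcr1 at 509 CPM in WT cells of C4 (immature cDC1) and 397 CPM in WT cells of C6 (cycling cDC1). In the Batf3-/- cells of C6, Xcr1 stood at 45.7 CPM, Clec9a at 82.1 against 203 CPM and Cadm1 at 12.3 against 151 CPM. By these genes alone, the cDC1 name of that cluster rests mainly on its WT cells. Xcr1 and Cadm1 were lower still, at 3.48 and 2.52 CPM, in Batf3-/- cells of C0 (immature cDC2a) with under 10 Irf8 UMIs. The 15 cDC1 genes listed for this report summed to 1802 CPM in Batf3-/- and 5200 CPM in WT cells of C6. In Batf3-/- cells of C5 (cycling cDC2a) they summed to 650 CPM. Only 31 Batf3-/- cells were in C4 and 31 in C12 (mature cDC1), against 2202 and 394 WT cells. C13 is named for NK cells, innate lymphoid cells and T cells, and its WT cells also held 4866 CPM of Jchain, a plasma cell gene, which was at 0 in its Batf3-/- cells. C9 (median 1467 UMIs in WT and 1487 in Batf3-/- cells) and C17 are clusters of low depth.

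The 8 genes fell into a group with wide and a group with narrow ranges over clusters. Over the 17 clusters of at least 100 cells, both libraries summed, the highest level of Irf8 was 162 times the lowest, that of Irf4 42.7 times, that of Irf1 17.5 times and that of Irf7 11.3 times. A wider range than that of Irf8 was found in 2.02% of the 5588 genes that averaged 20 CPM or more, and a wider range than that of Irf4 in 4.56%. Irf3, Irf5, Irf2 and Irf9 ranged by 3.4, 3.35, 2.56 and 2.04 times, and 93.8% of genes ranged wider than Irf9. The range of Irf3 rests on the low-depth cluster C9 (124 CPM), since the next, C0, held 55.5 CPM and the lowest, C8, 36.5 CPM. Because 1 tag is counted per molecule at the 3′ end, gene length does not enter these values.

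**Figure D1:**
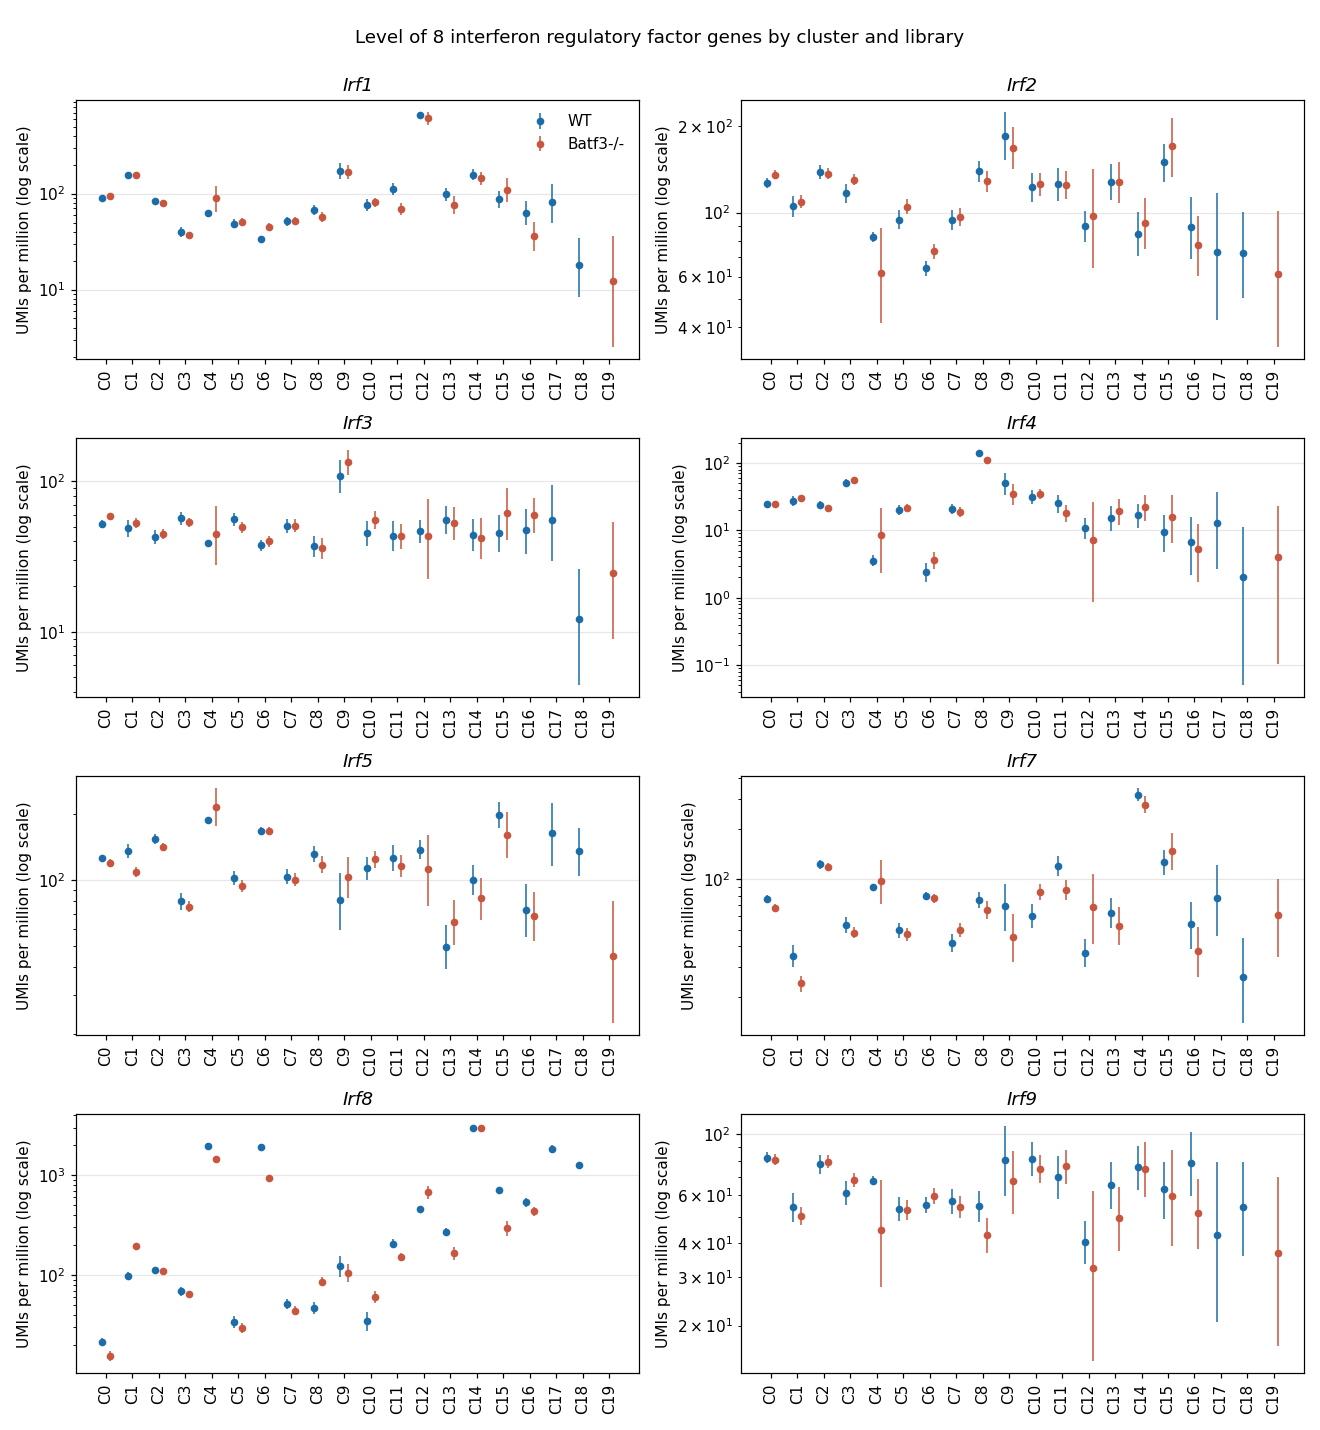
Level of each Irf gene (CPM, log axis) in each cluster with at least 30 cells of a library; points are the WT (blue) and Batf3-/- (red) libraries, bars are exact Poisson 95% counting intervals, and values of 0 are left out. Irf8 spans from 15.4 to 2996 CPM while Irf9 stays between 32.5 and 82 CPM.

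Irf8, the lineage factor of cDC1 and pDC, was highest in C14 with 2974 CPM, followed by C4 with 1963 CPM and C6 with 1454 CPM. C15 (monocytes) held 595 CPM, the mixed cluster C16 479 CPM and C12 473 CPM, and the last of these were not separated by their intervals. C13 held 225 CPM, C11 (mature cDC2b) 175 CPM and C1 (Il4i1+ mature cDC2) 169 CPM, and C11 and C1 were not separated. C2 (cDC2b) held 111 CPM, and the lowest levels were in C10, C7 and C5 (cycling cDC2a, 50.1, 47.2 and 31.2 CPM) and C0 (immature cDC2a, 18.4 CPM). Neighbours in this order overlapped in 5 places. The order is that of both libraries summed, and it turned within a library. In WT cells C1 (98 CPM) lay below C2 (111 CPM), and in Batf3-/- cells C12 (673 CPM) and C16 (434 CPM) lay above C15 (296 CPM).

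Irf4, the partner-dependent factor of cDC2, had a peak in one cluster when each was taken separately. C8 (mature cDC2a) held 128 CPM, with 143 in WT and 113 in Batf3-/- cells. C3 (Sox4+ cDC) followed with 54 CPM, and C9, C10, C1 and C0 held 41.1, 33.2, 29.6 and 24.6 CPM. The cDC1 clusters C4 and C6 were lowest with 3.64 and 2.99 CPM, and their intervals overlapped. In all, 14 neighbours in the order of Irf4 overlapped.

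Irf1, the factor induced by interferon-gamma and NF-kappaB, stood apart in C12 at 662 CPM (634 to 690.1). C9, C1 and C14 came next with 171, 157 and 153 CPM and could not be separated. The lowest levels were in C6 (38.9 CPM) and C3 (37.8 CPM). Irf7, the main inducer of interferon-alpha genes in pDC, was highest in C14 with 303 CPM, followed by C15 with 132 and C2 with 120.5 CPM, whose intervals overlapped. It was lowest in the mature clusters C12 with 39.1 CPM and C1 with 26.9 CPM. Irf5, which acts downstream of Toll-like receptors, was highest in C4 and C15, at 187 CPM in each, and lowest in C13 with 55.9 CPM. Irf2, Irf3 and Irf9 were read in every cluster of that size, at 68.4 to 175, 36.5 to 124 and 39.8 to 81.2 CPM. The low-depth cluster C9 was highest for Irf2 and Irf3, so those maxima rest on 902 cells with few UMIs.

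The levels of Irf8 and Irf4 ran against each other over clusters. The summed Irf8 UMIs exceeded those of Irf4 by 9.11 (8.85 to 9.38) on the log2 scale in WT cells of C4, by 9.61 in WT and 8.01 in Batf3-/- cells of C6, and by 7.47 and 7.09 in C14. Irf4 exceeded Irf8 in C8, where the log2 ratio of Irf8 to Irf4 came to -1.61 (WT) and -0.39 (Batf3-/-), as well as in C0 with -0.21 and -0.67. C3 lay close to equality with 0.42 and 0.24. Over 17 clusters the Pearson r of their log2 levels was -0.63, as a description, since the clusters were built from these transcripts. After thinning each cell to 1000 UMIs, both genes were seen together in 2 of 727 Batf3-/- cells of C6, in 2 of 531 WT cells of C8 and in 4 of 704 WT cells of C3, so co-expression could hardly be read at this depth.

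**Figure D2:**
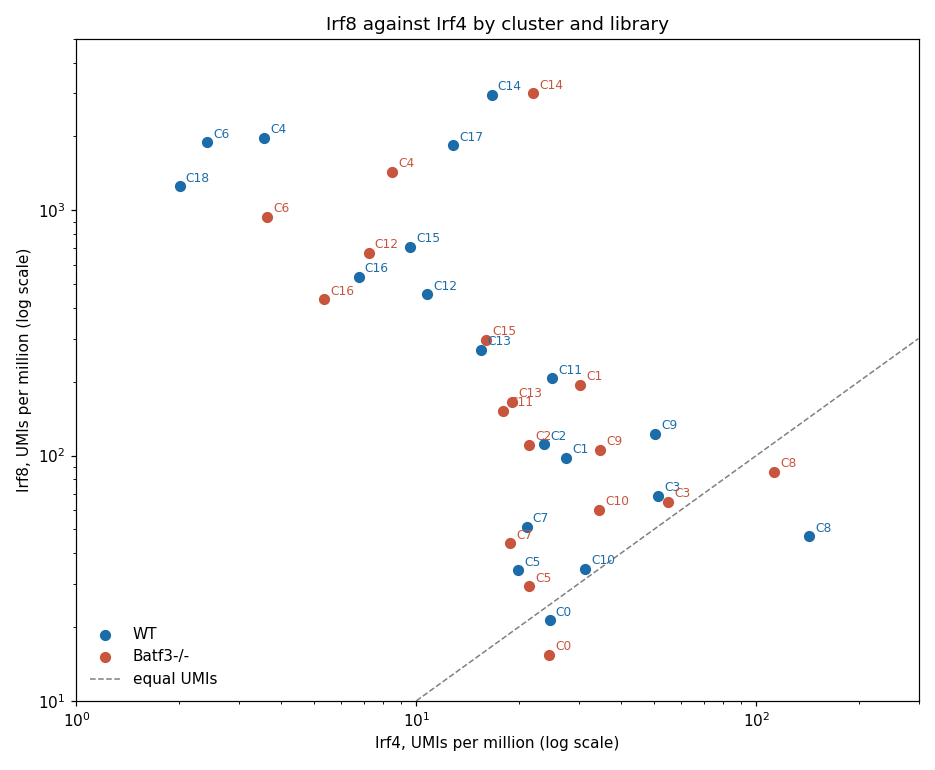
Irf8 level against Irf4 level (both CPM, log axes) for each cluster with at least 30 cells of a library, WT in blue and Batf3-/- in red; the dashed line marks equal UMIs. C4 and C6 lie at the upper left, C14 lies at the top near the middle of the Irf4 axis, and C8 lies to the right of the line at 143 and 113 CPM of Irf4.

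Over the whole library Irf8 stood at 891 CPM in WT and 217 CPM in Batf3-/- cells, a log2 ratio of -2.04 (-2.06 to -2.02). In the WT library, C4 and C6 together carried most Irf8 UMIs, 61.6% and 27.1%. In the Batf3-/- library C6 carried 51%, C14 12.6% and C1 10.7%. When the Batf3-/- levels of the clusters were weighted by the WT cluster composition, Irf8 came to 620 CPM and the log2 ratio to -0.52. C4 holds 27.9% of WT UMIs, so that value rests in large part on the 31 Batf3-/- cells of C4. Irf4 stood at 20.2 against 28.8 CPM, a log2 ratio of 0.51 that became 0.04 at the WT composition. Irf5 differed by -0.32, Irf7 by -0.25 and Irf2 by 0.21 on the log2 scale, and these became 0.03, -0.01 and -0.02. Irf1 and Irf3 differed by -0.10 and 0.17 and became 0.11 and 0.12. Irf9 stood at 66.2 and 65.3 CPM and became -0.15 on the log2 scale. No Irf gene other than Irf8 thus reached a 1.5-fold difference between whole libraries.

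Within clusters a member was counted as different when its levels were at least 1.5-fold apart, averaged 20 CPM or more and rested on 50 or more UMIs. Over 17 clusters 127 pairs of an Irf gene and a cluster passed the filter on level, of which 4 were higher and 8 were lower in Batf3-/- cells (3.15% and 6.3%). Over all genes 3.39% of 85395 pairs were higher and 3.25% lower. Irf8 made up 6 of the 12 differences. The background differed by cluster. In C0, C2, C3, C5 and C7, which held no member past 1.5-fold, 0.478%, 0.385%, 0.228%, 0.557% and 0.414% of all genes were higher and 0.593%, 0.81%, 0.152%, 0.631% and 0.612% lower. In C14, also with none, 2.6% were higher and 4.57% lower. In C4 11.9%, in C9 5.85%, in C11 1.63% and in C16 4.85% were higher and 7.24%, 4.42%, 2.83% and 4.62% lower.

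**Figure D3:**
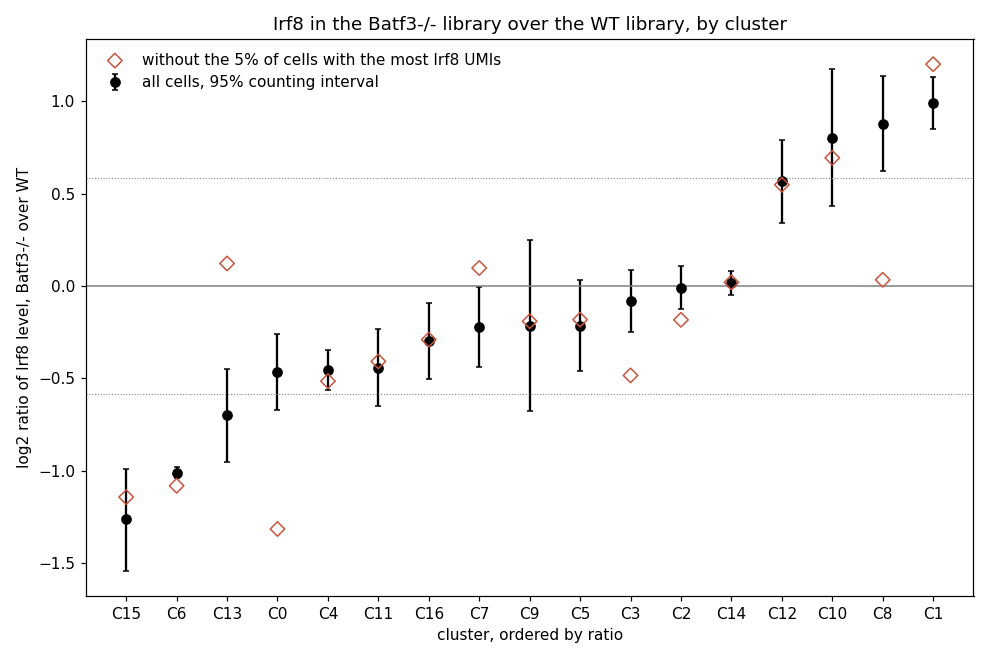
Log2 ratio of the Irf8 level, Batf3-/- over WT, in the 17 clusters with at least 30 cells in each library (points, exact 95% counting intervals); diamonds leave out the 5% of cells with the most Irf8 UMIs in each library, and dotted lines mark 1.5-fold. C15 and C6 lie lowest at -1.26 and -1.01 and C1 lies highest at 0.99, while the C8 point at 0.88 has its diamond at 0.03.

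In C6 the level of Irf8 was 1895 CPM in 797 WT cells and 941 CPM in 727 Batf3-/- cells, a log2 ratio of -1.01 (-1.04 to -0.98). Irf8 was the member lower by 1.5-fold there, as were 4.57% of genes, and no member was higher by 1.5-fold, as were 4.47%. The difference held within cell cycle phases. In S phase the levels were 1859 and 1014 CPM, and in G2M 1965 and 953 CPM. The 189 Batf3-/- cells called G1 stood at 735 CPM, whereas WT cells of C6 were almost all in S or G2M (98.4% against 74%). After thinning to 2000 UMIs, the median cell held 4 Irf8 UMIs in WT and 1 in Batf3-/-, and 4.77% and 30% of cells held none. After thinning to 1000 UMIs, 81.8% of WT cells (78.9% to 84.4%) and 52.5% of Batf3-/- cells (48.8% to 56.2%) held an Irf8 UMI. Without thinning these shares were 99.1% and 96.1%, at median depths of 19599 and 18019 UMIs. In the cycling cDC2 cluster C5, thinned in the same way, the shares were 2.41% and 2.65% (median depths 9919 and 11116). The 5% of cells with the most Irf8 UMIs carried 10.5% of them in WT and 14.7% in Batf3-/- cells of C6, so the UMIs were not held by a few cells.

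**Figure D4:**
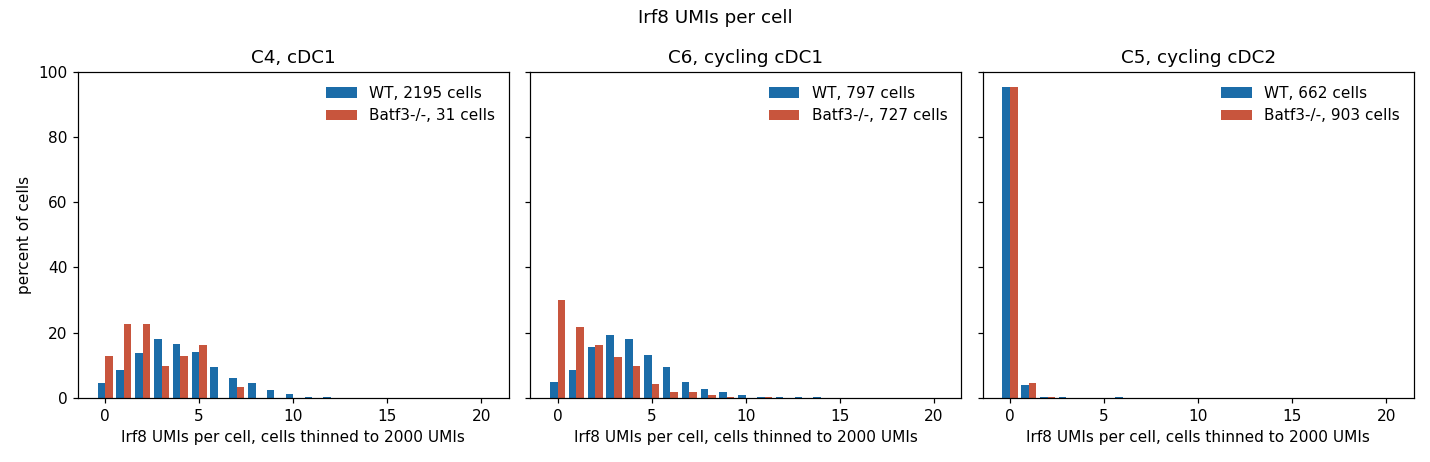
Distribution of Irf8 UMIs per cell after thinning each cell to 2000 UMIs (x axis, UMIs; y axis, percent of the cells of that cluster and library) in C4, C6 and C5, with WT in blue and Batf3-/- in red. In C6 the median moves from 4 to 1 UMI, while 95.5% and 95.2% of C5 cells are at 0.

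The cDC1 genes of C6 differed along with Irf8. Of 15 listed, 14 passed the filter and 13 were lower in Batf3-/- cells, where 4.57% of all genes were lower and 4.47% higher. Gcsam was 103 against 0.149 CPM, Cd36, a scavenger receptor, 85.3 against 4.46 CPM, and Cadm1, an adhesion molecule of cDC1, 151 against 12.3 CPM. The median log2 ratio of the list was -2.34, against 0.01 over all genes tested. Of 7 cDC2 genes that passed, 6 were higher, led by the lectin Cd209a (14.9 to 139 CPM), the oxidase subunit Cybb (22.4 to 109 CPM) and Ltb (41.7 to 156 CPM). The authors had already reported Cd209a, Cybb, Ltb and Ccr2 as higher in these Batf3-/- cells. They had reported Cadm1, Cd36, Xcr1, Naaa, Cd8a, Tlr3 and Tlr11 as lower. These genes stand in the cDC2 and cDC1 lists, so the counts are not independent of that report. Among the partners of IRF4 and IRF8, 1 of 6 past the filter differed by 1.5-fold. It was Batf3 (288 to 0.446 CPM), the gene that the genotype removes, and Spi1, Jun, Junb, Jund and Ikzf1 did not differ so. With a filter of 20 UMIs alone, 1 of 8 was also higher. Of the sensors and adaptors, Tmem173, which encodes STING (23.1 to 57.5 CPM), Slc15a4 (18.7 to 39.1 CPM) and Myd88 (42.3 to 65.5 CPM) were higher and Tlr3 (90.9 to 33.2 CPM), which stands in the cDC1 list too, was lower. Irf4 itself stood at 2.43 and 3.64 CPM in C6, against 19.9 and 21.5 CPM in C5.

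Irf8 was higher in Batf3-/- cells of 3 cDC2 clusters. In C1 it stood at 98 CPM in 721 WT and 194 CPM in 1845 Batf3-/- cells, a log2 ratio of 0.99 (0.85 to 1.13). Of all genes 0.946% were higher and 1.19% lower there by 1.5-fold, and Irf8 was the member among the higher. The share of cells with an Irf8 UMI at 1000 UMIs was 9.31% (7.28% to 11.7%) in WT and 14.5% (12.9% to 16.2%) in Batf3-/- cells, against 2.02% and 1.22% in C0. Without thinning it was 30.4% and 41.6%. Leaving out the 5% of cells with the most Irf8 UMIs in each library left 54.4 and 125 CPM. In 49 Batf3-/- cells of C1 with 10 or more Irf8 UMIs, the summed level of the 15 cDC1 genes was 1419 CPM, against 1187 CPM in the other 1796 cells. Id2, which stands in that list, made up 1114 and 975 CPM of these sums. Xcr1 stood at 7.22 against 1.67 CPM, Naaa at 18 against 6.69 CPM and Cadm1 at 0 against 5.09 CPM, all of them few UMIs. In the 6 such WT cells the cDC1 genes summed to 1176 CPM against 1353 CPM in the other 715, and Xcr1 and Naaa were at 0 against 3.45 and 23.4 CPM. In the 49 Batf3-/- cells the 12 maturation genes summed to 7599.7 CPM, against 6162 CPM in the other 1796. Sirpa stood at 72.2 against 162 CPM in these Batf3-/- cells. Of those 49 cells 8 were doublet calls, against 87 of the other 1796.

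In C8 Irf8 stood at 46.8 and 85.9 CPM, a log2 ratio of 0.88 (0.62 to 1.14), where 1.36% of all genes were higher and 1.3% lower. This difference rested on few cells. The shares of cells with an Irf8 UMI were 4.71% and 5.54% at 1000 UMIs, with overlapping intervals, and the top 5% of cells carried 52.6% of Irf8 UMIs in WT and 73.2% in Batf3-/- cells. Without those cells the levels were 23.7 and 24.3 CPM. The 12 Batf3-/- cells with 10 or more Irf8 UMIs held 10811 CPM of maturation genes and 1988 CPM of cDC1 genes. The other 457 cells held 4465 and 629 CPM, and 0 of the 12 were doublet calls. Id2 alone made up 1377 and 300 CPM of the cDC1 sums. Xcr1, Cadm1 and Naaa stood at 24.4, 16.3 and 48.9 CPM, against 3.14, 5.56 and 20.3 CPM. In C10 Irf8 stood at 34.6 and 60.2 CPM (log2 ratio 0.80, 0.43 to 1.18), where 0.74% of genes were higher and 1.34% lower, and at 16.5 and 26.6 CPM without the top cells. The shares of C10 cells with an Irf8 UMI were 2.48% in WT and 3.2% in Batf3-/- cells at 1000 UMIs. Its top 5% of cells carried 55.3% and 59.5% of the Irf8 UMIs.

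Irf8 was also lower in 2 clusters outside the cDC. In C15 it stood at 709 CPM in 145 WT cells and 296 CPM in 52 Batf3-/- cells (log2 ratio -1.26, -1.54 to -0.99), where 7.57% of genes were lower and 7.47% higher. In 19 WT cells of C15 with 10 or more Irf8 UMIs the cDC1 genes summed to 4855 CPM and Xcr1 stood at 393 CPM, against 893 and 16.1 CPM in the other 126 cells. The median depth of those 19 cells was 18744 UMIs and 5 of them were doublet calls, and their part in the difference was not tested. In C13 Irf8 stood at 269 and 166 CPM (log2 ratio -0.70, -0.95 to -0.45), where 3.85% of genes were lower and 5.01% higher. Of the WT UMIs 61.6% came from 12 cells, and without the top cells the levels were 116 and 126 CPM. NK-labelled cells of C13 held 453 CPM in WT and 396 CPM in Batf3-/- cells, with overlapping intervals, and the 56 T-labelled WT cells held 41.7 CPM. The DC-labelled cells of C13 held 479 and 146 CPM, and Xcr1 stood at 42.6 and 1.74 CPM in the cluster, whose part in the difference was not tested.

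In C14 the level of Irf8 was 2960.1 CPM in 154 WT and 2996 CPM in 101 Batf3-/- cells, a log2 ratio of 0.02 (-0.05 to 0.08). In C2 it was 111 and 110.4 CPM (-0.13 to 0.11) and in C3 68.7 and 64.9 CPM (-0.25 to 0.09). In C4 it was 1970.4 CPM and, in the 31 Batf3-/- cells, 1439 CPM (log2 ratio -0.45), and in C12 454 and 673 CPM (0.57), both under 1.5-fold. In C0 it was 21.3 and 15.4 CPM (-0.46, -0.67 to -0.26), and 11.6 and 4.64 CPM without the top cells. Naaa, an enzyme gene of cDC1, stood at 40.3 and 22.6 CPM in the same cells of C0, and the part of free RNA from cDC1, which were more numerous in the WT suspension, was not tested. C3 held 13 WT and 28 Batf3-/- cells with 10 or more Irf8 UMIs. In these the pDC genes summed to 5660.1 and 3961 CPM, against 1505 and 1490.3 CPM in the other cells, Siglech stood at 507 and 432 CPM against 123 and 95.4 CPM, and Irf4 stood at 111 and 130.5 CPM against 50.1 and 53.6 CPM. None of them was a doublet call.

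The other 7 members made up the remaining 6 differences. Irf2, Irf3 and Irf5 reached 1.5-fold in no cluster, with ranges of the log2 ratio of -0.42 to 0.20, -0.18 to 0.45 and -0.32 to 0.37. Irf4 also passed the filter with 1.5-fold nowhere. In C8 it was 143 and 113 CPM (log2 ratio -0.34, -0.52 to -0.17). Irf1 was lower in C11, at 112 and 69.6 CPM (log2 ratio -0.68, -0.98 to -0.38), where 2.83% of genes were lower, and in C16, at 63.6 and 36.5 CPM from 47 and 34 UMIs (4.62% of genes lower). In C6 it was 33.5 and 45.2 CPM (0.43, 0.26 to 0.60), under 1.5-fold, and the Batf3-/- cells of C6 called G1 held 66.6 CPM. Irf7 was higher in C12, at 36.4 and 68.7 CPM from 108 and 19 UMIs (log2 ratio 0.92, 0.13 to 1.63), where 12.5% of genes were higher, and lower in C9, at 68.9 and 45.2 CPM with an interval that spans 0 (4.42% of genes lower). In C1 it was 35 and 23.9 CPM (-0.55, -0.82 to -0.28), and in C10 60.2 and 84.3 CPM (0.49). Irf9 was lower in C4 with 67.6 and 44.6 CPM (21 UMIs in Batf3-/- cells, interval across 0, 7.24% of genes lower) and in C16 with 78.4 and 51.5 CPM.

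Cell states were compared within each library. In mature over immature cDC1 (C12 over C4, WT), Irf1 was 667 against 62.2 CPM, a log2 ratio of 3.42 (3.33 to 3.51). Irf8 was 454 against 1970.4 CPM (-2.12), Irf7 36.4 against 90 CPM (-1.31) and Irf9 40.4 against 67.6 CPM (-0.74). Of all genes 24.9% were higher and 34% lower by 1.5-fold, so 1 higher and 3 lower of 7 members that passed the filter lie near the background in number. Irf4 was 10.8 against 3.57 CPM and did not pass the filter on level. The 12 maturation genes gave 10 higher, led by Fscn1 (12.3 to 957 CPM), an actin bundler, Socs2 (8.52 to 657 CPM) and the chemokine receptor gene Ccr7 (41.9 to 1935 CPM). The authors named C12 mature from Ccr7, Cd40, Cd83, Fas and Cd274, which stand in this list, so the count largely restates that name.

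**Figure D5:**
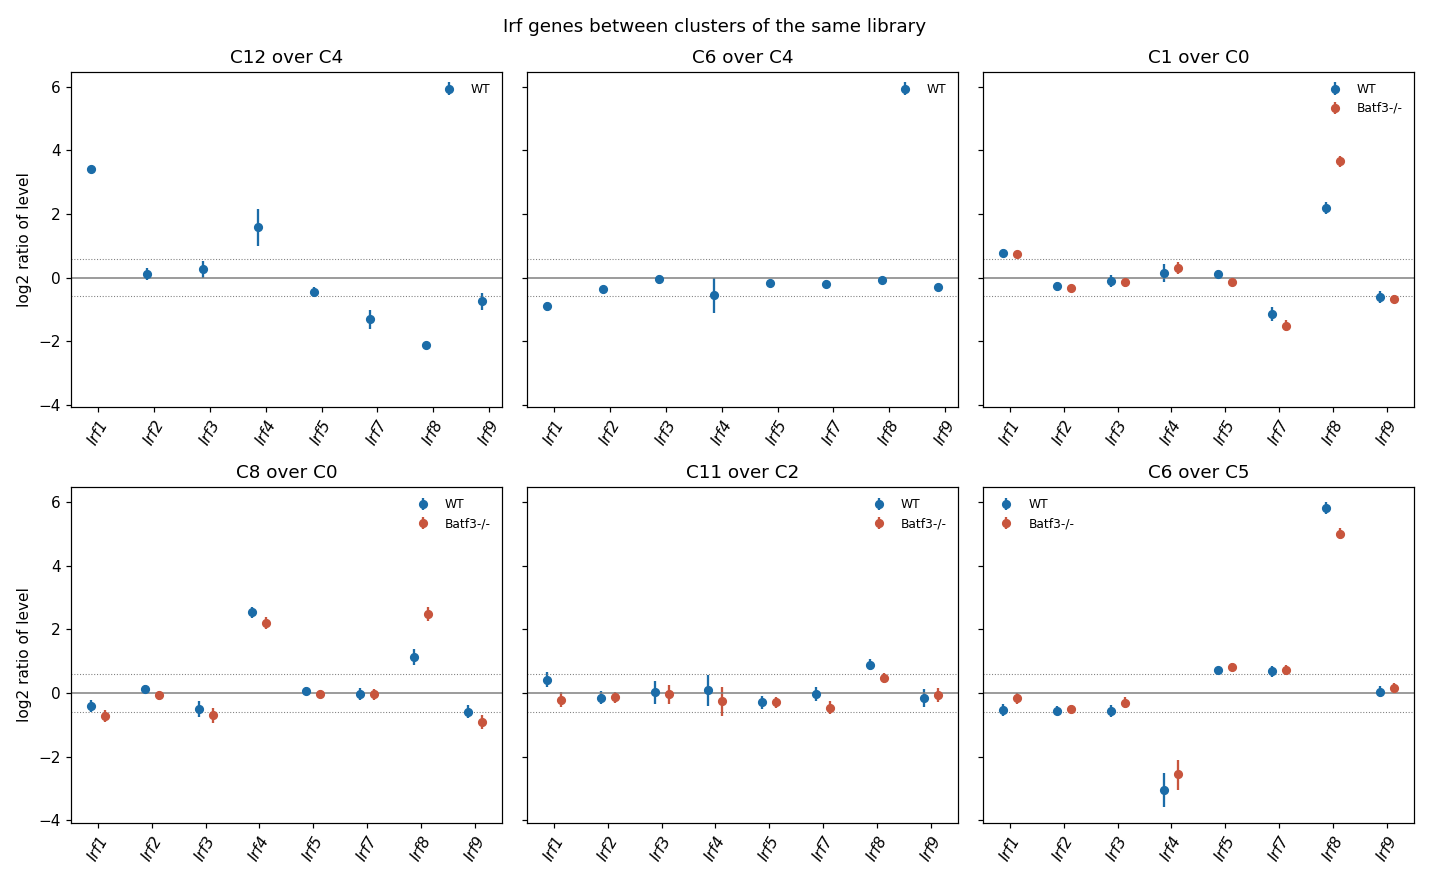
Log2 ratio of each Irf gene between 2 clusters of the same library (points, exact 95% counting intervals; WT blue, Batf3-/- red); dotted lines mark 1.5-fold. Irf1 stands at 3.42 for C12 over C4, Irf4 at 2.54 and 2.20 for C8 over C0, and Irf8 at 2.20 and 3.65 for C1 over C0.

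In the Il4i1+ mature cDC2 over the immature cDC2a (C1 over C0), Irf8 was 98 against 21.3 CPM in WT and 194 against 15.4 CPM in Batf3-/- cells, log2 ratios of 2.20 (2.01 to 2.39) and 3.65 (3.49 to 3.82). Irf1 was 155 against 89.8 CPM and 157 against 93.7 CPM. Irf7 was lower, at 35 against 76.6 CPM and 23.9 against 67.8 CPM, and Irf9 at 54.1 against 82 CPM and 50.4 against 80.5 CPM. Irf8 and Irf1 were thus the higher and Irf7 and Irf9 the lower members in each library, where 12.2% of genes were higher and 18.2% lower in WT and 13% and 20.2% in Batf3-/- cells. Irf4 was 27.6 against 24.7 CPM in WT, a log2 ratio of 0.16 with an interval across 0. In Batf3-/- cells it was 30.3 against 24.5 CPM (0.31, 0.12 to 0.49), under 1.5-fold.

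In the mature cDC2a over the immature cDC2a (C8 over C0), a comparison that shares the C0 cells, Irf4 stood at 143 against 24.7 CPM in the WT library (log2 ratio 2.54, 2.37 to 2.71) and 113 against 24.5 CPM in Batf3-/- cells (2.20, 2.02 to 2.38). Irf8 was 46.8 against 21.3 CPM and 85.9 against 15.4 CPM, and Irf9 54.5 against 82 CPM and 42.7 against 80.5 CPM. Irf7 was 75.3 against 76.6 CPM in WT and 65.7 against 67.8 CPM in Batf3-/- cells, with both intervals across 0. In Batf3-/- cells Irf1 and Irf3 were also lower by 1.5-fold (log2 ratios -0.72 and -0.71). Of all genes 10.7% were higher and 6.28% lower in WT, and 10.3% and 7.28% in Batf3-/- cells. The maturation genes gave 6 higher and none lower in both libraries, and the AP-1 subunit gene Junb stood at 2748 against 468 CPM in WT. C8 too was named mature from genes of this kind, so that count is not independent of its name.

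In C11 over C2 (mature over other cDC2b) Irf8 was 207 against 111 CPM in WT (log2 ratio 0.89, 0.72 to 1.07; 8.42% of genes higher and 1.9% lower) and 152 against 110.4 CPM in Batf3-/- cells (0.46). The cDC1 genes summed to 1085 CPM in C11 and 560.2 CPM in C2 of WT, and to 744 and 535 CPM in Batf3-/- cells. In 6 WT cells of C11 with 10 or more Irf8 UMIs, at a median depth of 15459.5 UMIs, Xcr1 stood at 101 CPM and Naaa at 496 CPM, against 8.27 and 57.9 CPM in the other 182 cells, whose median depth was 8759.5 UMIs. Of those 6 cells 1 was a doublet call, and their part in the difference was not tested. No member reached 1.5-fold in the Batf3-/- library, where 6.23% of genes were higher and 1.69% lower. In C6 over C5, Irf8 was 1895 against 34 CPM in WT and 941 against 29.3 CPM in Batf3-/- cells. Irf5 was 167 against 102 CPM and 167 against 94 CPM, and Irf7 79.3 against 49.7 CPM and 76.8 against 46.9 CPM. These 3 were the higher members of 7 that passed in each library, where 10.8% and 8.04% of genes were higher and 17.3% and 13.2% lower. Phase differed between these clusters, since C5 was almost all in S phase and 189 of the 727 Batf3-/- cells of C6 were in G1. Within S phase Irf7 stood at 83.3 against 50.1 CPM in WT, and at 69.9 against 48.7 CPM in Batf3-/- cells, which is under 1.5-fold. Irf4 was 2.43 against 19.9 CPM and 3.64 against 21.5 CPM, under the filter. In cycling over immature cDC1 (C6 over C4, WT, the same C4 cells as above), Irf1 was lower at 33.5 against 62.2 CPM (6.24% of genes lower, 16% higher), and Irf8 differed by -0.06 on the log2 scale.

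The labels of single cells split some cDC2b clusters. In C2, cells labelled monocytes held 151 CPM of Irf8 in WT and 146 CPM in Batf3-/- cells, against 85.4 and 95.6 CPM in cells labelled DC. In C11, monocyte-labelled cells held 213 and 212 CPM of Irf7, against 67 and 56.7 CPM in DC-labelled cells. In C2 Irf7 stood at 152 against 104 CPM in WT but at 118 against 119.5 CPM in Batf3-/- cells. The monocyte-labelled cells of C11 held 312.5 and 281 CPM of Irf8 against 122 and 99.2 CPM. The intervals of the subsets did not overlap, except for Irf7 in Batf3-/- cells of C2.

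Genes of the interferon pathway were set beside the Irf genes. The type I interferon-stimulated genes (29 in the files) summed to 8172 CPM in WT and 7827 CPM in Batf3-/- cells of C14, the cluster highest for Irf7. They summed to 4217 and 4621 CPM in C15, the next for Irf7. C10 followed with 3625 and 3394 CPM, though its Irf7 stood at 60.2 and 84.3 CPM, against 123 and 119 CPM in C2. The interferon-stimulated list holds Bst2, which also served as a pDC marker. In C1 over C0, 14 of 21 that passed were lower and 1 higher in WT, and 11 of 18 lower and 2 higher in Batf3-/- cells, where 18.2% and 20.2% of all genes were lower and 12.2% and 13% higher. Irf7 and Irf9 were lower there too. In C12 over C4, where both were also lower, 6 of 14 were higher and 3 lower (all genes 24.9% and 34%). In C6 over C5, where Irf7 was higher in both libraries over all phases, 7 of 13 were lower and 2 higher in WT (all genes 17.3% and 10.8%), and 3 of 12 lower and 2 higher in Batf3-/- cells (13.2% and 8.04%). Ifit3 was 15.5 against 60.9 CPM, Oasl2 12.9 against 46.3 CPM and Rtp4 23.7 against 82.1 CPM in WT, while the GTPase gene Mx1 was 56.5 against 23.7 CPM. The list's median log2 ratio was -0.86 in WT, against -0.17 over all genes.

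In C8, 10 of 20 interferon-stimulated genes were lower in Batf3-/- than in WT cells and none was higher, where 1.3% of all genes were lower and 1.36% higher, with a median of -0.54 against -0.02 over all genes. Ifit3 was 13.1 against 38.6 CPM, Ifit1 12 against 33.5 CPM and Rsad2 (viperin) 19.7 against 37.4 CPM. The sensor genes Ifih1 (38.7 against 63.2 CPM) and Ddx58 (24.4 against 37.4 CPM) were lower as well and stand in both lists, and Cxcl10 was 89 against 39.1 CPM. In the same cells Irf7 stood at 75.3 and 65.7 CPM and Irf9 at 54.5 and 42.7 CPM, both under 1.5-fold. At 2-fold 2 of the 20 were lower. In the other 16 clusters 0 to 3 of these genes were lower by 1.5-fold, the most in C11 with 3 of 21 (2.83% of all genes lower). Over those clusters the share of all genes lower ran from 0.152% in C3 to 12.1% in C12. The median of the list was also below 0 in C2 (-0.25), C9 (-0.26), C0 (-0.23), C11 (-0.23) and C1 (-0.22). Its summed level was 2475 and 1910.5 CPM in C8, 3135 and 2500.1 CPM in C11 and 3426 and 2863 CPM in C2. With a filter of 20 UMIs alone, 13 of 27 were lower in C8 (5.31% of all genes), 12 of 28 in C4 (24.5%), 9 of 22 in C9 (8.86%) and 6 of 27 in both C1 (4.9%) and C11 (7.06%), and in C6 11 of 28 were higher (8.72%) and none lower. Whether C8 differed from other clusters was not tested.

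Of the interferon-gamma and IRF1-linked genes, 7 of 13 were higher and 3 lower in C12 over C4, where 24.9% of all genes were higher and 34% lower. The guanylate-binding protein genes Gbp5 (5.12 to 80.9 CPM), Gbp4 (14.3 to 222 CPM) and Gbp2 (6.85 to 65.7 CPM) were highest beside the higher Irf1. Cxcl9 (608 to 89.3 CPM), Ciita, the activator of MHC class II genes (484 to 109.5 CPM), and Cxcl10 (51.7 to 28 CPM) were lower. In C1 over C0, 4 of 11 were higher and 1 lower in WT and 7 of 14 higher and 2 lower in Batf3-/- cells (all genes 12.2% and 18.2%, then 13% and 20.2%), led by Gbp2 with 97 against 7.15 CPM in WT. Among receptors and JAK-STAT genes, Ifngr1, an interferon-gamma receptor chain, was 61.3 against 565 CPM in C12 over C4 and 141 against 406 CPM in C1 over C0 of WT, and Tyk2 was 164 against 58.9 CPM and 98.2 against 33.8 CPM. Stat2, the partner of IRF9, was 36.8 against 74.6 CPM in C1 over C0 and 37.9 against 74.6 CPM in C8 over C0 of WT. Among the sensors and adaptors, 4 of 11 were higher and 3 lower in C12 over C4, close to the shares over all genes, with Traf3 (12.4 to 61.3 CPM), Traf6 (9.86 to 38.1 CPM) and Tbk1 (25.6 to 56.3 CPM) higher and Tlr3 (107 to 1.68 CPM), Unc93b1 (387 to 176 CPM) and Myd88 (45.5 to 20.9 CPM) lower.

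Genes whose levels ran most like each Irf gene over the 17 clusters were named by Pearson r of log2(CPM + 10), as a description. For Irf8 these were Mpeg1 (0.91), P2ry14 (0.89) and Cadm1 (0.88). For Irf1 they were Il15ra, the interleukin-15 receptor chain (0.93), Gbp4 (0.91) and Gm12216 (0.90), which lies on the opposite strand with its 3′ end 5043 bases past the end of Irf1 (chromosome 11, 53783418 to 53859256). Irf7 ran most like Atp13a2 (0.90), Trim30a (0.89) and Khk (0.85), and Irf9 most like the immunity-related GTPase gene Irgm1 (0.83), Mfap3 (0.81) and 9930111J21Rik2 (0.79). Irf4 ran most like Elmsan1 (0.86), Crtc3 (0.85) and Ptgs2, the cyclooxygenase-2 gene (0.85), and Irf5 most like Rab32 (0.86), Glrx (0.82) and Ebi3 (0.81). Irf2 was matched by Foxn3 (0.92), Ythdf3 (0.91) and Ankrd44 (0.90) and Irf3 by Tbce (0.94), Pnisr (0.94) and Zfp329 (0.94). Irf3 stood at 124 CPM in the low-depth cluster C9 and at 55.5 CPM in the next cluster. Irf1 stood at 662 CPM in C12 and 171 CPM in the next, and Irf4 at 128 CPM in C8 and 54 CPM in the next. How far the r values of these genes rest on those clusters was not tested. Among the members themselves the highest r was 0.63, between Irf2 and Irf4, followed by 0.55 between Irf7 and Irf9.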

How the data were processed

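The authors sequenced 3′ libraries, aligned reads to GRCm38 with Cell Ranger 3.0.2, evened sequencing depth between the libraries and kept cells with 500 to 5000 genes in Seurat. The raw tables hold counts, deposited as UMIs per gene and cell. The normalized tables, also deposited, are on a natural log scale (1 added to UMIs per 10000 of a cell). Recomputed Irf rows differed from them by at most 5.77e-15. Mitochondrial shares are deposited as a fraction of UMIs. Summed UMIs equalled the deposited total in 24343 of 24343 cells. Antibody tables were not used here. Clusters, labels and phases are the authors'.

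Levels are raw UMIs summed over cells and divided by all UMIs (CPM, per 1000000), and their 95% intervals are exact Poisson ones. Ratios carry exact intervals from the binomial split of the UMIs, and shares carry Clopper-Pearson intervals. UMIs were summed over the cells of 1 library, so intervals leave out the spread between cells and mice and cover counting error only. A count of 0 allows up to 3 counts. Thinning to 1000 UMIs without replacement left out 28 WT and 42 Batf3-/- cells, and to 2000 UMIs 461 and 508. Genotype ratios need 30 cells in each library. Scrublet in scanpy 1.11.5 called 541 WT and 244 Batf3-/- cells doublets at an expected rate of 0.1, which was chosen because 0.05 called 0 Batf3-/- cells, and these cells stayed in except where stated. Intervals were tested only on counts simulated from the Poisson and binomial models that they assume, which hold no added spread between cells. Python 3.11.15, numpy 2.4.6, scipy 1.17.1 and pandas 2.3.3 were used.

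The 8 Irf genes, the gene lists and the comparisons were chosen with earlier results of these data known. Named genes are the Irf genes, Batf3, the 3 highest and 3 lowest members of a list past 1.5-fold and the 3 genes most like each Irf gene, plus markers. Naaa in C0 and the genes given for cells with 10 or more Irf8 UMIs were chosen after values were seen.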

Additional observations from a re-analysis of the deposited data

Results flagged for a closer look

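Irf8 differed between the genotypes in opposite directions in different clusters of at least 100 cells in each library. The log2 ratio of Batf3-/- over WT was -1.01 in C6 and -0.70 in C13, and 0.99 in C1, 0.88 in C8 and 0.80 in C10. With 1 library per genotype the difference between clusters was not tested. Without the 5% of cells with the most Irf8 UMIs the values were -1.08 in C6 and 0.12 in C13, and 1.20 in C1, 0.03 in C8 and 0.69 in C10.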

How the results depend on the processing

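No paired analysis was possible because there was 1 library per genotype. Of 773 ratios of an Irf gene between genotypes within clusters, recomputed under the alternatives, 747 stayed within the counting interval, 25 moved beyond it and 1 that was past 1.5-fold turned its sign. List counts moved in 367 of 1080 cases, shares of cells in 523 of 624 and whole-library ratios in 12 of 40. Without the 5% of cells richest in the gene, chosen after seeing the data, Irf8 came to 0.12 in C13, 0.033 in C8, 1.20 in C1, -1.08 in C6, -1.32 in C0 (from -0.46), -0.48 in C3 (from -0.08) and 0.097 in C7 (from -0.22). Leaving out mitochondrial and ribosomal protein genes gave -0.95 for Irf8 in C6, and 3.27 for Irf1 and -2.27 for Irf8 in C12 over C4. The mean over cells gave 3.58 and -1.99 for the latter, and -1.89 for Irf8 and 0.27 for Irf4 over the whole library, which were -0.52 and 0.037 at the WT composition. Without doublet calls Irf1 came to 3.56 in C12 over C4. At 2-fold, 2 interferon-stimulated genes were lower in C8 instead of 10. Of the 3 genes most like Irf1, Irf3 and Irf9, 1 each remained in WT cells alone, and 1 for Irf4 with a pseudocount of 1. The causes of these shifts were not tested. Genotype, library and the origin of the mice cannot be told apart, and 31 Batf3-/- cells limit C4 and C12.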
